A study of Mus musculus with 16 samples.

Results

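The replication-dependent histone genes of the mouse were examined in RNA-seq libraries of cultured cortical neurons. Members were all genes whose symbol begins with Hist1h, Hist2h, Hist3h or Hist4h, which gave 64 of the 22440 genes listed in each deposited table. They comprised 6 H1, 16 H2a, 18 H2b, 12 H3 and 12 H4 genes. The Hist1 cluster on chromosome 13 held 51 of them, the Hist2 cluster on chromosome 3 held 9, the Hist3 cluster on chromosome 11 held 3, and Hist4h4 lay alone on chromosome 6.

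The neurons were primary cultures dissociated from the cortex of Swiss-Webster mouse embryos at embryonic day 16, and all 4 RNA libraries shared that source. The etoposide pair was a culture titled as control and a culture given 5 µM etoposide, a drug that traps type II topoisomerases on cut DNA. The NMDA pair was a control culture with its own number and a culture given NMDA, an agonist of a class of glutamate receptor. According to the protocols, most experiments used 50 µM NMDA for 10 min and a recovery of 10 min. No length is stated for etoposide, and neither control title names a treatment. The series also held 12 chromatin samples, which were not analysed here. How many embryos were pooled for a culture is not stated. With 1 library per group, differences could not be set against a replicate spread, and no test was run.

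Replication-dependent histone genes supply the core histones H2A, H2B, H3 and H4, around which DNA is wrapped, and the linker histone H1, when DNA is copied in S phase. Their mRNAs are the textbook exception among animal mRNAs in ending in a conserved stem-loop in place of a poly(A) tail. The stem-loop binding protein Slbp and the U7 small nuclear ribonucleoprotein guide the cut that forms this end. Neurons have left the cell cycle, and they draw largely on replication-independent variants such as H3.3, whose mRNAs are polyadenylated. Some cluster genes, among them the human counterparts of Hist1h1c and Hist1h2bc, are also known to give polyadenylated transcripts in differentiated human cells.

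The stem-loop was read from the mm9 genome in the 100 bases after the stop codon of the longest annotated coding sequence of each gene. It was taken as a stem of 6 paired bases that begins with GG around a loop of 4 bases, on the coding strand. It was present in 54 of the 59 members with such a window (91.5%), against 66 of 21667 other coding genes (0.305%). The commonest form, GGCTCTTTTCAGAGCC, stood in 32 members of types H1, H2a, H2b and H3. H4 genes had stems of their own, with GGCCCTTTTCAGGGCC in 6 of 11 and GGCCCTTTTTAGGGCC and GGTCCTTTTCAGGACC in 2 each. The sites of members with large differences or high levels are given 5′ to 3′, with the 16 bases of stem and loop in capitals and their mm9 position and strand.
Hist1h4a, chr13:23852669-23852684, minus strand: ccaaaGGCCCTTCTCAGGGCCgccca
Hist1h4c, chr13:23789958-23789973, minus strand: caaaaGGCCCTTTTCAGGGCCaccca
Hist1h4d, chr13:23673819-23673834, plus strand: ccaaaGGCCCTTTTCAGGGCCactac
Hist2h4, chr3:96066862-96066877, minus strand: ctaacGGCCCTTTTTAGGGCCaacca
Hist1h3a, chr13:23853759-23853774, minus strand: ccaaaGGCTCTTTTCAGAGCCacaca
Hist3h2ba, chr11:58762851-58762866, plus strand: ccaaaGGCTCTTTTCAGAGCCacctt
Hist1h1b, chr13:21871706-21871721, minus strand: ccaaaGGCTCTTTTCAGAGCCaccta
The Hist1h4a form, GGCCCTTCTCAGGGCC, stood in no other member. No match was found in this window for Hist1h2an, Hist1h2bp, Hist1h2bq, Hist2h2bb and Hist2h2be. For Hist1h2bp, Hist1h2bq and Hist2h2bb the window followed an annotated coding sequence with 2 exons. Windows after any other stop codon were not read, so these genes may still hold a stem-loop elsewhere.

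Promoter sequences of RefSeq (GRCm38.p6, 250 bases before to 50 after each start) were matched for 57 members. The octamer ATTTGCAT, searched on both strands, lay in 7 of 15 H2a and 6 of 15 H2b promoters and in 0 of the 27 promoters of other types, against 1.75% of all 27025 promoters in the table. TATAAA on either strand lay in 33 of 57 (57.9%) against 14.2% of all promoters. CCAAT on either strand lay in 49 of 57 (86.0%) against 37.9%, with all 46 H1, H2a, H2b and H3 promoters holding it and 3 of 11 H4 promoters. Octamer sites are shown with 11 bases on either side, in GRCm38.p6 on the strand of the gene and with the octamer in capitals, for the H2b gene with the highest level in the NMDA pair and for a head-to-head pair that shares a single site.
Hist2h2bb, chr3:96269641-96269670, plus strand: tgtgaaacctcATTTGCATacaagctctat
Hist1h2bg, chr13:23571330-23571359, plus strand: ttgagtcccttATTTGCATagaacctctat
Hist1h2ae, chr13:23571330-23571359, minus strand: atagaggttctATGCAAATaagggactcaa
The last 2 lines are the same 30 bases read from opposite strands. Hist1h2aa with Hist1h2ba, and Hist1h2ah with Hist1h2bk, shared a site in the same way.

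Depth and the rest of the transcriptome were as follows. From the spacing of low FPKM values (fragments per kilobase of RNA, scaled to the size of the library), the normalization totals were about 15.3 to 22.9 M fragments per library. A floor of 3 fragments on 1 kb corresponded to between 0.131 and 0.196 FPKM. In the etoposide pair 10459 genes of the control and 9836 of the treated culture reached 1 FPKM, and in the NMDA pair 12886 and 12775. All 11 neuron markers found in the tables, among them the tubulin Tubb3, reached 1 FPKM in every library. Both pairs also carried progenitor and glial transcripts. The 10 neural progenitor markers summed to 185 FPKM in the etoposide control and 88.3 with etoposide, and to 1292 in the NMDA control and 1284 with NMDA. The 8 astrocyte markers summed to 103 and 54.3, then 945 and 912. The 7 microglia markers summed to at most 4.13, with C1qa listed at 0 in the etoposide control and Tmem119 with etoposide. The 8 oligodendrocyte lineage markers summed to 20.6 and 5.39, then 195 and 190, with Sox10 at 0 with etoposide. The 8 vascular and fibroblast markers summed to between 2.31 and 40.9, with Cldn5 at 0 in 3 libraries and Kdr at 0 with etoposide.

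Histone transcripts were detected in all cultures, and H4 and H2b genes gave most of the signal. At least 1 FPKM was reached by 59 members in the etoposide control, 56 with etoposide, and 55 in each library of the NMDA pair. Summed over members, histone FPKM came to 721 in the etoposide control and 941 with etoposide. In the NMDA pair it came to 2931 and 2994. H4 genes held 37.3%, 43.6%, 45.9% and 43.7% of that sum (control, etoposide, NMDA control, NMDA), and H2b genes 31.4%, 30.8%, 27.7% and 27.6%. H1 genes held between 3.61% and 9.23%. Levels set across the pairs carry the limit that each library was normalized on its own total, and in bulk RNA fewer cells that express a gene and less RNA per cell cannot be told apart.

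**Figure D1:**
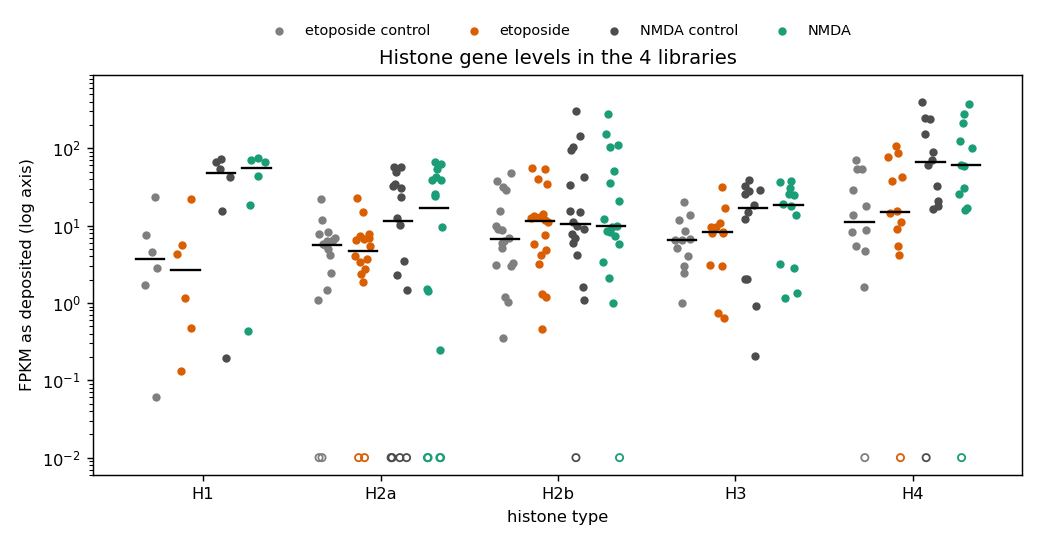
FPKM of each histone gene (points, log axis) by histone type in the 4 libraries. Black bars are medians and open circles stand for values under 0.01 FPKM. The NMDA pair lies above the etoposide pair for most H1 and H4 genes, while H2a, H2b and H4 hold genes listed at 0.

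Hist1h4d, an H4 gene, and Hist2h2bb, an H2b gene, had the highest mean levels over the 4 libraries. Hist1h4d stood at 71.0 FPKM (etoposide control), 86.6 (etoposide), 395 (NMDA control) and 379 (NMDA), and values of other members are given in this order. Hist1h4h stood at 54.1, 76.7, 248 and 281 FPKM, and Hist2h4 at 28.6, 38.1, 237 and 215. For all 3 H4 genes the step between the pairs was larger than that within either pair. Among H2b genes, Hist2h2bb was at 31.6, 56.1, 303 and 281 FPKM. Hist3h2ba was at 48.7, 54.4, 144 and 153. Hist1h2bc did not share the step between pairs, with 37.4, 40.4, 33.5 and 35.4.

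Linker histone genes had a different order in the 2 pairs. Hist1h1c was the highest of them in the etoposide pair, with 23.3 and 22.3 FPKM, against 72.9 and 70.2 in the NMDA pair. Hist1h1a, at 4.61, 4.24, 66.7 and 76.0, was far below Hist1h1c in the etoposide pair and at a similar level in the NMDA pair. Hist1h1d (1.70, 1.14, 15.3 and 18.3) was lower than both. Hist1h1e (7.63, 5.65, 42.9 and 44.5) was above Hist1h1a in the etoposide pair and below it in the NMDA pair. Hist1h1e shares a merged locus with Hist1h2be in the deposited values. The testis-specific Hist1h1t stayed under 1 FPKM in every library.

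H2a and H3 genes were at lower levels than H4 genes, and they split by how they differed between the pairs. Hist3h2a, which lies beside Hist3h2ba, stood at 22.3, 23.1, 34.9 and 39.1 FPKM. Hist1h2ak stood at 11.8, 7.86, 56.6 and 62.4, and Hist2h2ac at 6.52, 7.30, 58.0 and 65.8. Hist3h2a was thus the highest H2a gene in the etoposide pair and below both others in the NMDA pair. Among H3 genes, Hist1h3e was highest in the etoposide pair, at 20.3 and 31.7 FPKM, and stood at 28.03 and 24.9 in the NMDA pair. Hist1h3f had the opposite place, with 6.57, 8.30, 39.4 and 38.1, and was the highest H3 gene in the NMDA pair.

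Members of 3 types reached a lowest value of 0. Hist1h2ap and Hist1h4n were listed at 0 in all 4 libraries. Hist1h2ad, Hist1h2ah, Hist2h2aa2 and Hist1h2bq were listed at 0 in both NMDA pair libraries, while they ranged from 1.04 to 6.95 FPKM in the etoposide pair. In the sequence checked, these 6 genes had almost none of their own. For Hist1h2bq only the coding sequence was checked, 328 windows of a gene whose annotated transcript has 2197 bases. Hist2h3c1 also had 0% unique windows, yet it was above 0 in all 4 libraries. Of their 50-base windows a median of 0% occurred once in the mm9 genome, with a highest value of 10.1%, against a median of 43.4% for the 58 members above 0 throughout. The sources used here do not say how fragments that match several copies were shared out, so a 0 in these genes is a listing rather than a measured absence.

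With etoposide, core histone genes were higher relative to the transcriptome and linker histone genes were not. The scale is log2((treated + 1)/(control + 1)) on FPKM, which understates differences of low genes, for genes at 1 FPKM or more in either library of the pair. The 59 measured members had a median of 0.18, against -0.32 over all 10681 genes measured, a difference of 0.51. Above 0 lay 42 of 59, where 23.3% of all genes did, and above the median of all genes 50 of 59, where by construction 50% did. Histone genes are short, and the 286 other genes spanning at most 2 kb had a median of 0.04, which is 0.36 above all genes, with 53.1% above 0 and 76.9% above the median of all genes. By a rule of size, 1 member was at least 2-fold higher (Hist1h4a, where 0.477% of all genes were) and 1 at least 2-fold lower (Hist1h1b, where 7.36% were). Among the short genes, which include some small RNAs, 4.55% were at least 2-fold higher and 4.55% lower. None of the 64 members was among the 692 genes of the authors' deposited table for etoposide. With 692 genes listed out of 22440, few of 64 members would be listed at random, so this absence says little.

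The difference was graded by type. All 11 measured H4 genes lay above 0, with a median of 0.49, which is 0.82 above all genes. H2b genes had a median of 0.25 (15 of 17 above 0), H3 genes 0.19 (7 of 12) and H2a genes 0.03 (9 of 14). The shares above 0 were thus 58.3% for H3 and 64.3% for H2a, against 53.1% of the other short genes. H2a genes lay 0.35 above all genes, close to the 0.36 of the other short genes. None of 5 H1 genes lay above 0, and their median of -0.33 differed from that of all genes by -0.01. As sums, H4 genes went from 269 to 410 FPKM (1.53 times), H2b from 226 to 290 (1.28 times), H3 from 89.9 to 110 (1.23 times), H2a from 95.4 to 96.6 (1.01 times) and H1 from 40.1 to 34.0 (0.846 times). In approximate fragments H4 genes held 682 in the control and 936 with etoposide, a ratio scaled for depth of 1.49 (95% interval 1.34 to 1.64, counting error only). For H1 genes the fragments were 762 and 613, a ratio of 0.871 (0.782 to 0.970). Gene by gene, the counting interval lay above 1 for 3 of 11 H4, 3 of 17 H2b, 3 of 12 H3 and 1 of 14 H2a genes. It lay below 1 for 2 of 12 H3 and 2 of 5 H1 genes. For the other measured genes the interval spanned 1. Median scaling set the median FPKM ratio to 1 over genes at 5 FPKM or more in both libraries. After it, the ratios of summed FPKM were 1.94 for H4, 1.63 for H2b, 1.56 for H3, 1.29 for H2a and 1.08 for H1. Set against the other control, scaled in the same way, the H4 median was only 0.09 above all genes, so the value for H4 depends on which control is used.

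By cluster, with etoposide 33 of 46 measured Hist1 genes lay above 0 (median 0.21), 5 of 9 Hist2 genes (median 0.07) and 3 of 3 Hist3 genes (median 0.16). Of all genes 23.3% lay above 0, and of the other short genes 53.1% (median 0.04). Hist2 genes were thus close to the other short genes.

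**Figure D2:**
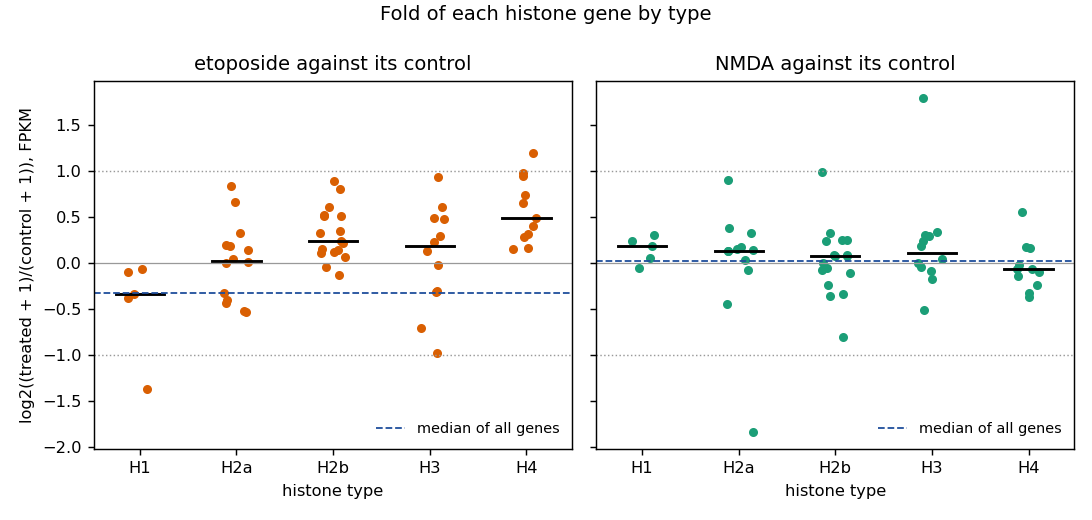
Log2 fold of each measured histone gene (points) by type for etoposide and for NMDA, each against its control, with type medians as black bars and the median of all genes as a dashed line. Dotted lines mark 2-fold. With etoposide all 11 H4 genes lie above 0 and all 5 H1 genes below it.

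**Figure D3:**
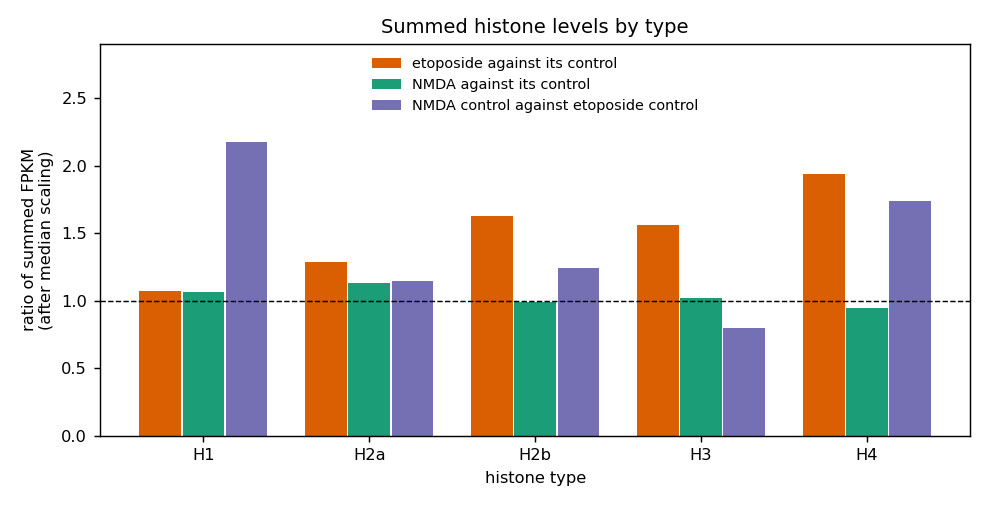
Ratio of summed FPKM per histone type after median scaling, for etoposide, NMDA and the 2 controls. The scaling set the median ratio to 1 over genes at 5 FPKM or more in both libraries of a comparison. The dashed line marks no difference. The etoposide bars run from 1.08 for H1 to 1.94 for H4, the NMDA bars lie close to 1, and the control bars run from 0.794 for H3 to 2.18 for H1.

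Hist1h4a had the largest fold with etoposide. It stood at 18.0 FPKM in its control and 42.6 with the drug, against 33.0 and 25.3 in the NMDA pair. The etoposide library was the highest and its own control the lowest. The FPKM ratio was 2.36 (95% interval 1.57 to 3.73 from about 33 and 73 fragments). Of its windows 24.7% were unique, so fragments of other H4 copies may be counted in it or its own elsewhere. Hist1h4c, with 54.5, 106, 155 and 123 FPKM, had a ratio of 1.95 (1.52 to 2.51). Its NMDA ratio was below 1, at 0.795 (0.680 to 0.925). Hist4h4, the sole member outside the clusters, went from 1.61 to 4.16 FPKM. Its annotated RNA of 312 bases would give about 3 and 7 fragments and an interval of 0.577 to 15.1. The deposited locus spans 2879 bases, so these fragment numbers may be too low and the interval too wide.

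Outside H4, Hist2h2bb had a ratio of 1.78 (1.45 to 2.19), and all of its windows were unique. Hist1h3a stood at 5.21, 10.9, 29.3 and 36.2 FPKM. Its ratio with etoposide was 2.09 (1.31 to 3.40). Relative to the median of all genes, 8 members were at least 2-fold higher, where 1.47% of all genes were and 9.09% of the other short genes. They were Hist1h2ai, Hist1h2bl, Hist1h3a, Hist1h4a, Hist1h4b, Hist1h4c, Hist2h2bb and Hist4h4. By the same measure Hist1h1b alone was lower, where 2.08% of all genes and 1.4% of the short genes were.

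The lowest folds with etoposide belonged to a linker gene and a pair of H3 genes of the Hist2 cluster. Hist1h1b went from 2.80 to 0.471 FPKM, and stood at 53.9 in the NMDA control and 66.7 with NMDA. It was low in both libraries of the etoposide pair and lowest with the drug, on about 22 and 3 fragments (ratio 0.168, 0.0283 to 0.491). Its sequence was wholly unique. Hist2h3b stood at 13.6 and 7.96 FPKM (ratio 0.585, 0.349 to 0.964), and Hist2h3c2-ps, named as a pseudogene, at 2.43 and 0.744 (ratio 0.306, 0.124 to 0.631).

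With NMDA, histone genes differed little from their control. The 57 measured members had a median log2 fold of 0.08 against 0.02 over 13028 genes. Above 0 lay 34 of 57, where 57.2% of all genes and 43.9% of 369 other short genes did. At least 2-fold higher was Hist2h3b (0.438% of all genes were) and at least 2-fold lower Hist1h2aa (0.729% were), against 4.88% and 8.67% of the short genes. Type medians lay between -0.09 for H4 and 0.16 for H1 relative to all genes, and 3 of 11 H4 genes were above 0. Summed FPKM with NMDA was 1.097 times that of its control for H1, 1.16 for H2a, 1.02 for H2b, 1.046 for H3 and 0.971 for H4. In fragments, the ratios scaled for depth were 1.13 for H2a (1.08 to 1.19) and 0.9898 for H4 (0.951 to 1.03). None of the 63 genes of the authors' deposited table for NMDA was a member, which says little with so few of 22440 genes listed.

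Both members past 2-fold on the log2 scale with the pseudocount rested on few fragments. Hist2h3b went from 0.203 FPKM in the control, about 1 fragment, to 3.19 with NMDA, about 14 fragments, a ratio of 15.7 (2.30 to 638). Both values lay below those of the etoposide pair. The testis histone gene Hist1h2aa went from 3.45 to 0.245 FPKM, about 15 and 1 fragments (ratio 0.0711, 0.00171 to 0.467). It was listed below 0.0001 FPKM in both libraries of the etoposide pair. Hist1h2ba, the testis H2b gene that faces it, went from 15.1 to 8.28 FPKM and stood at 0.351 and 0.466 in the etoposide pair. So both genes of this pair were higher in the NMDA control than with NMDA, and near 0 or under 0.5 FPKM in the etoposide pair. The next largest folds rested on more fragments for the higher genes. Hist1h2bj stood at 7.00, 11.2, 9.93 and 20.7 FPKM, a ratio with NMDA of 2.08 (1.43 to 3.14, about 41 and 80 fragments). Hist1h2an stood at 2.47, 3.35, 12.5 and 24.2, a ratio with NMDA of 1.94 (1.40 to 2.78, about 55 and 100 fragments). Both were highest with NMDA, and 25.9% of the windows of Hist1h2bj and 14.2% of those of Hist1h2an were unique. Hist1h3b went from 2.07 to 1.16 FPKM with NMDA on about 10 and 5 fragments (ratio 0.560, 0.145 to 1.73).

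The largest differences among histone genes lay between the 2 control cultures. The NMDA control exceeded the etoposide control by a median of 1.55 over 61 members and of 1.32 over all 12987 genes measured. Above 0 lay 48 of 61 members, where 98.4% of all genes and 91% of 368 other short genes did. At least 2-fold higher were 38 members, where 75.1% of all genes were, and at least 2-fold lower 8, where 0.708% were. Of the short genes 76.6% and 6.25% were. Relative to all genes the types parted, with the other short genes 0.52 above the median of all genes. H1 genes lay 1.27 above the median of all genes and H4 genes 1.14 above, H2a genes 0.40 above, H3 genes 0.13 below (-0.13) and H2b genes 0.75 below (-0.75). Relative to that median 19 members were at least 2-fold higher (8.02% of all genes were) and 15 at least 2-fold lower (2.96% were). In FPKM as deposited, summed H1 was 6.27 times as high in the NMDA control and summed H4 5.01 times, against 2.29 times for H3. The factor for median scaling between these libraries was 2.88. After that scaling the ratios were 2.18 for H1, 1.74 for H4 and 0.794 for H3.

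This difference went with how much of the checked sequence of a gene is unique in the genome. For long loci only the coding sequence was checked, such as 341 windows of Hist1h2ac, whose transcript has 2482 bases. The difference also went with span. Relative to all genes the median was -0.71 for 14 members spanning over 1 kb (-1.08 for 11 without H1) and 0.40 for 47 shorter ones. The 23 measured members with at least 50% unique windows had a median log2 fold of 2.42, which is 1.09 relative to all genes. The 38 with less had 0.82, which is -0.50 relative to all genes. Across the 61 members the rank correlation of percent unique with this log2 fold was 0.69, and 0.62 over the 57 that were above 0 in every library. With etoposide it was -0.02 over 59 members and with NMDA -0.05 over 57. Members share sequence and, in each comparison, a library, so these are descriptions. Unique sequence also went with type, from a median of 89.0% in H1 genes and 46.0% in H4 to 28.8% in H2b, 28.1% in H3 and 19.3% in H2a. Whether the libraries were handled alike at shared sequence was not tested.

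**Figure D4:**
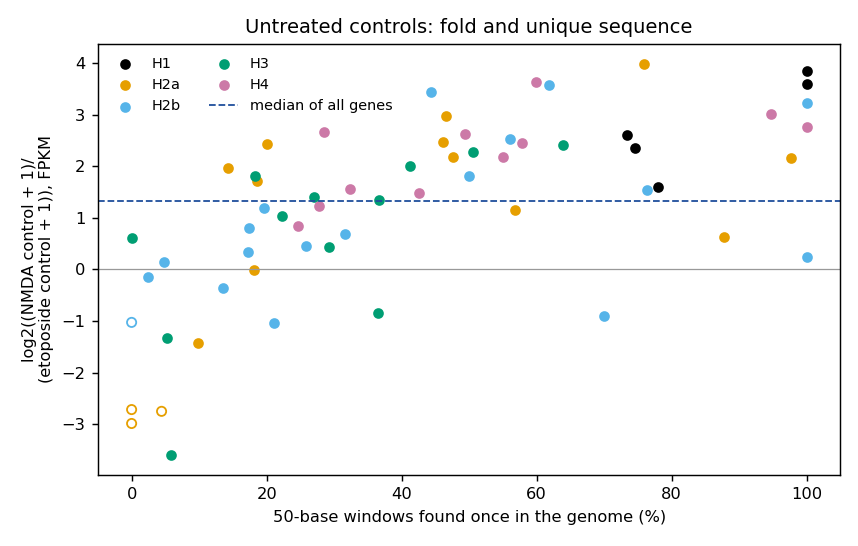
Log2 fold of the NMDA control over the etoposide control for each of 61 histone genes against the percent of its 50-base windows found once in mm9, coloured by type. Open circles are 4 genes listed at 0 in the NMDA control, and the dashed line is the median of all genes. Genes with many unique windows lie higher, with a rank correlation of 0.69. For long loci the windows cover only the coding sequence.

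The genes around histone supply were followed as lists. With etoposide, 3 of 18 measured genes of histone transcription and 3′ processing lay above 0, where 23.3% of all genes did, and none was past 2-fold. Their median lay 0.19 above all genes, with 13 of 18 above the median of all genes. Slbp had the largest fold of that list, at 5.45, 9.52, 22.0 and 21.4 FPKM. Npat, the factor that switches on histone transcription in S phase, stood at 1.79, 1.56, 4.93 and 4.97. In FPKM as deposited, Slbp was therefore higher with etoposide while Npat was not. The log2 fold of Npat, -0.12, still lay above the median of all genes, -0.32. Neither Slbp nor Npat differed with NMDA by more than 0.04 on the log2 scale. Of the replication-independent histone genes 5 of 10 lay above 0, with a median 0.38 above all genes and none past 2-fold. H3f3a, which encodes H3.3, went from 57.4 to 85.9 FPKM with etoposide and stood at 280 and 301 in the NMDA pair. H2afz, which encodes the variant H2A.Z, went from 25.8 to 33.2 and stood at 272 and 255.

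Cell cycle genes lay on both sides of 0 with etoposide. Of 31 S phase genes 13 were measured with etoposide, 5 above 0 and 8 below, where 23.3% of all genes were above, with none past 2-fold. Their median lay 0.19 above all genes, with 9 of 13 above the median of all genes. Pcna, the sliding clamp of DNA polymerases, went from 11.7 to 15.4 FPKM, while Rrm2, a subunit of ribonucleotide reductase, went from 2.09 to 1.17. Genes of G2 and mitosis were barely detected in the etoposide pair, with 2 of 15 measured and summed levels of 8.48 and 4.45 FPKM, against 75.2 and 73.1 in the NMDA pair. With etoposide all marker lists of cell types with at least 5 measured genes lay below all genes, in the opposite direction from the core histones. The relative median was -0.35 for 11 neuron markers, whose sum went from 636 to 383 FPKM, -0.48 for 5 progenitor markers and -0.55 for 7 astrocyte markers. Between the controls, by contrast, several lists were higher in the same library as the H1 and H4 genes. Relative to all genes, progenitor markers lay at 0.96, astrocyte markers at 1.73 and oligodendrocyte lineage markers at 1.13. Replication-independent histone genes and small RNAs without a poly(A) tail lay at 0.95 each. G2 and mitosis genes lay at 0.51, close to the 0.52 of the other short genes, and S phase genes at 0.22. Neuron markers lay below all genes (-0.22). The part of dividing or glial cells in these histone values was not tested.

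Other RNAs without a poly(A) tail were also higher with etoposide. Of 71 measured small RNAs, such as small nucleolar RNAs and RNase P RNA, 49 lay above 0, with a median 0.80 above all genes. At least 2-fold higher were 20 of 71 and at least 2-fold lower 7, where 0.477% and 7.36% of all genes and 4.55% each way of the other short genes were. The other short genes lay 0.36 above all genes. That set holds some of the same small RNAs, among them Scarna2 and Snord65, so it is no separate background for them. Many of the small RNAs were listed at 0, 62 of 120 in the etoposide control and 54 with etoposide. With NMDA their median lay 0.18 below all genes (-0.18), with 13 of 97 at least 2-fold higher and 24 lower, against 4.88% and 8.67% of the short genes. The part of RNA selection or of fragment size in the histone differences was not tested.

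**Figure D5:**
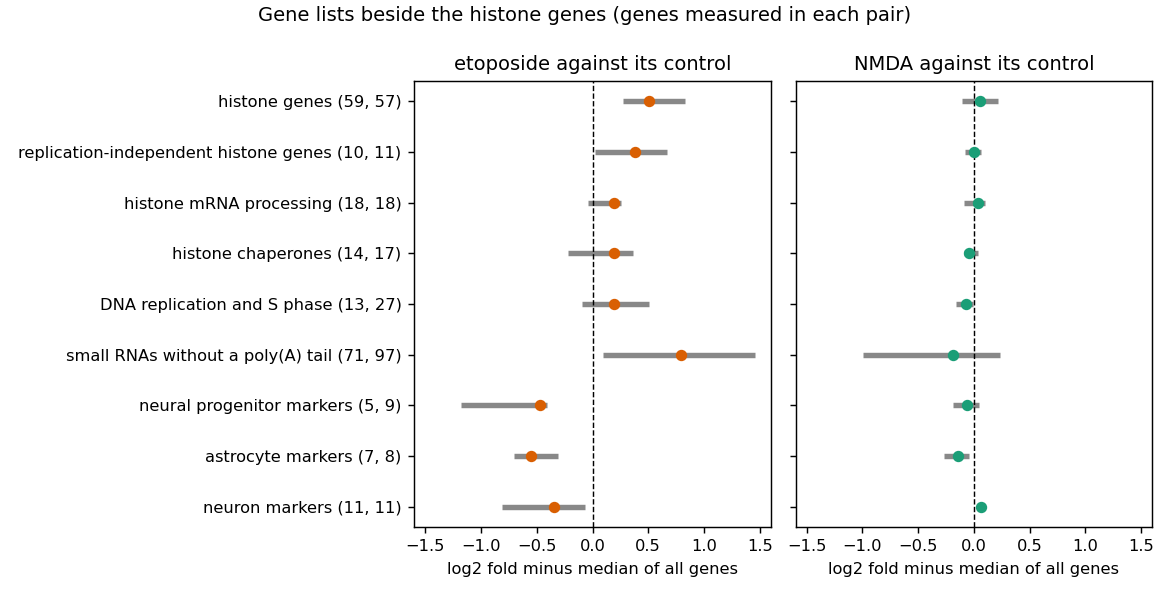
Median log2 fold (points) and interquartile range (grey bars) of the histone genes and related gene lists, minus the median of all genes, for etoposide and NMDA against their controls. Numbers in parentheses are genes measured with etoposide and with NMDA. With etoposide, histone genes (0.51) and small RNAs (0.80) lie to the right, and neuron (-0.35), progenitor (-0.48) and astrocyte markers (-0.55) to the left, while the NMDA medians lie near 0.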

How the data were processed

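Total RNA was sequenced in paired ends, as the labels' protocols state. Tools named in the submitters' processing notes are Cufflinks 2.0.0, Cuffdiff, TopHat, Bowtie, BWA, Picard and HOMER, and the build is mm9, with no role for any of them. The FPKM values are the authors' and were used as deposited. Members and lists were chosen with earlier results of these data known, and the uniqueness threshold of 50%, the stem-loop and promoter searches were chosen after values were seen.

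Folds used a pseudocount of 1 FPKM and a filter of 1 FPKM in either library of a pair. Named members were the 5 highest per type, and the 3 largest folds each way per comparison. Others named were chosen after their values were seen. Fragment numbers came from the spacing of low FPKM values, with 200 bases taken off each RNA length (assumed, since the sources used here give no fragment length). The RNA length was that of the deposited locus, or of the annotated transcript for long loci. They are approximate, and 95% intervals (exact binomial) cover counting error only. Windows, stop codons and stem-loops came from mm9 with GENCODE vM1. Uniqueness windows covered the deposited locus, or only the coding sequence for long loci. Of the members, 59 had an annotated coding sequence at the deposited locus. Loci of Hist1h1e and Hist1h2be are merged in the tables, so their values are uncertain, as are those of near-identical copies. Steps were tested on simulated data with Python 3.11.15, numpy 2.4.6, pandas 2.3.3, scipy 1.17.1 and pysam 0.24.0. Alternatives were another pseudocount (0.1), no filter or a filter of 5 FPKM, median scaling, the other control and unique members.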

Additional observations from a re-analysis of the deposited data

How the results depend on the processing

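No paired analysis was possible because each group had 1 library, and no replicate could be left out for the same reason. The control library mattered most. Against the other control, etoposide gave a histone median of -1.37 (main 0.18), 0.30 relative to all genes, a summed ratio of 0.321, 9 members at least 2-fold higher and 32 lower, and relative medians of -1.26 for H1, 1.36 for H2b and -0.10 for H4. With median scaling added, chosen after seeing the data, these were 0.46 for the histone median, 24 and 10 members, -1.46, 1.39 and 0.0898. NMDA against the other control gave 1.55, 0.19 relative to all genes, a summed ratio of 4.15, 37 members higher and 9 lower, and relative medians of 1.48 for H1, -0.60 for H2b, -0.16 for H3 and 1.04 for H4. With scaling added these were a ratio of 1.39, 18 and 15 members, 1.33, -0.56, -0.17 and 0.76. Against the other control 13 of 31 named members kept their direction with etoposide and 19 of 33 with NMDA, and with scaling 21 of 31 and 21 of 33. Hist2h3b with NMDA took the opposite sign, -1.80 and with scaling -2.82, as did Hist2h2bb with etoposide, -2.41 and -0.44. These alternatives hold the difference between the control cultures by construction.

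Under the other alternatives run, the etoposide histone medians and summed ratio kept their direction. The NMDA summed ratio, near 1, went to 0.993 with median scaling, and the NMDA median relative to all genes to -0.02 for members with at least 50% unique windows. Etoposide moved to a median of 0.49, a summed ratio of 1.66 and 8 members higher with median scaling. Relative to all genes it moved to 0.28 with no filter and 0.66 with a filter of 5 FPKM, and H2b to 0.35 with no filter. A pseudocount of 0.1 gave 4 members higher and 2 lower with etoposide and 2 higher with NMDA. A filter of 5 FPKM left 0 lower with etoposide and 0 either way with NMDA. Members with at least 50% unique windows, an alternative chosen after seeing the data, gave 0 higher in either pair, an H3 median of 0.94 and a summed ratio of 1.24 with etoposide. The cause of these moves was not tested. Of named members, 29 of 32 kept their direction with etoposide and 32 of 34 with NMDA under median scaling. Counting error alone spread the etoposide ratio over 2-fold for members with an interval and at most 58 fragments in the smaller library of the pair.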
